A study of Vitis vinifera with 42 samples.

Results

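The genes for the proteins of the cytosolic ribosome were followed in deseeded Cabernet Sauvignon berries from bagged and light-exposed clusters. A gene was taken as a member where its deposited KEGG Orthology term names a eukaryotic small- or large-subunit ribosomal protein (an S or L number ending in e or Ae) or one of the acidic stalk proteins LP0, LP1 and LP2. The rule itself uses no expression value, but it was set with earlier results of these data known. It found 264 of 28940 genes, for 77 proteins: 95 genes for 31 proteins of the small subunit, 155 genes for 43 proteins of the large subunit and 14 genes for the 3 stalk proteins. A member had to reach a mean of 1 FPKM (fragments per kilobase of transcript, scaled to the mapped fragments of the library) in at least 1 group to be tested, and 229 of the 264 did, among 21902 tested genes. The 35 others stayed at group means of 0.97 FPKM or less, and 1 of them was listed at 0 in every library.

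The ribosome is the machine that makes protein: the small subunit reads the mRNA and the large subunit joins the amino acids. Each ribosomal protein is present in about equal amount in the particle, so growing cells make all of them together, and plants do this from small gene families with several active copies per protein. In grape berries a first phase of cell division and growth ends before véraison, the onset of colouring and softening, after which the berry grows mainly by cell expansion and fills with sugar. Ribosomal protein genes are among the best known markers of growing tissue, and in plants and animals their transcripts and their translation depend on the TOR kinase, which senses nutrients and energy.

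Clusters of T1 were bagged from the pepper-corn berry stage (E-L 29 on the Eichhorn-Lorenz scale) until harvest, clusters of T8 were bagged at early véraison (E-L 35) with the bag taken off at mid-ripening (E-L 36), and clusters of T2 hung in the light throughout. There were 15 T1 libraries (5 stages, E-L 31 and E-L 35 to 38), 9 T8 libraries (3 stages, E-L 36 to 38) and 18 T2 libraries (the 5 stages of T1 and E-L 29), 3 in each of 14 groups, each from pooled berries of 1 biological replicate (A, B or C) of a single cultivar in a single season. The stages run through pepper-corn size (E-L 29), pea size (E-L 31), early véraison (E-L 35), mid-ripening (E-L 36), not quite ripe berries (E-L 37) and harvest (E-L 38). Values of a group are given in the order of its replicates A, B and C. The groups are named by stage, and the study set harvest by the commercial harvest time of the vineyard. A bagged and a light-exposed group of one stage name may therefore differ in ripening progress.

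The summed FPKM of a library ranged between 561036 and 672526, and replicates of a group correlated at 0.936 to 0.985 on the log2 scale. The table gives FPKM only and no read numbers per gene. Although the berries had been deseeded, transcripts named as seed storage proteins were found (2S albumin, 7S globulin and a vicilin-like gene). They summed to 9825, 45514 and 30374 FPKM in the T1 libraries at E-L 31 (A, B and C), against 346, 250 and 9214 FPKM in those of T2. They lay between 273 and 1184 FPKM in T8 at E-L 36, between 339 and 417 FPKM in T8 at E-L 37 and at or below 303 FPKM in the other groups. The 10 most abundant genes took 9.45, 22.7 and 16.3% of all FPKM in T1 at E-L 31, and 9.61, 9.13 and 9.94% in T2. All FPKM are relative to the rest of the library, so the values of the ribosomal genes at E-L 31 are given below together with these numbers, and less RNA per cell cannot be told apart from fewer cells of a type.

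The annotation was checked against the deposited BLAST names. A ribosomal protein was named for 90 members, no usable name was given for 163, and another protein was named for 11. Of these 11, the KEGG term L7Ae covered 5 E3 ubiquitin ligases and a calcium-binding protein 39-like gene, L10e covered 2 acid phosphatases, L18e an epoxide hydrolase 2-like gene, and L24e 2 copies of RLP24, a protein that helps to assemble the large subunit. All 11 were tested and stayed in the counts of called members, the shares of summed FPKM and the comparison of gene copies. The FPKM sums and ratios per protein leave them out. Leaving them out moved no count of called members by more than 1.5 times. Each of these genes is marked as such where it is named.

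Ribosomal protein transcripts were abundant. The tested members had a median of 60.6 FPKM over all libraries, against 6.65 FPKM for all tested genes, and their means ran between 0.224 and 346 FPKM. There were 81 members above 100 FPKM and 30 under 10 FPKM, and 40 of the members stood among the 500 most abundant genes. The medians were 67.1 FPKM for the 83 tested small-subunit genes, 60.1 FPKM for the 137 large-subunit genes and 55.0 FPKM for the 9 stalk genes. The highest was a copy of S27e, a zinc-binding protein of the small subunit (VIT_201s0150g00310), which ranked 140 among all genes. When the copies of a protein were added up, S6e had the highest mean sum (554 FPKM), followed by L27Ae (512 FPKM) and S27Ae (427 FPKM). The lowest sums were those of L37e (79.3 FPKM) and S14e (105 FPKM).

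All ribosomal protein genes together took 2.05 to 5.51% of the summed FPKM, by group mean. In T2 the share was 4.06 ± 0.0345% at pepper-corn size (E-L 29), 5.51 ± 0.510% at pea size (E-L 31), 2.69 ± 0.190% at early véraison (E-L 35), 2.34 ± 0.0138% at mid-ripening (E-L 36), 2.36 ± 0.0495% in not quite ripe berries (E-L 37) and 2.15 ± 0.0968% at harvest (E-L 38; SD, n = 3 each). In T1 it was 4.23 ± 0.470% at pea size, 4.38 ± 0.578% at early véraison, 2.67 ± 0.157% at mid-ripening, 2.08 ± 0.0995% in not quite ripe berries and 2.08 ± 0.0964% at harvest. The light-exposed berries thus had their high share at E-L 31 and the low level from E-L 35 on, while bagged berries still stood at the high level at E-L 35.

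**Figure D1:**
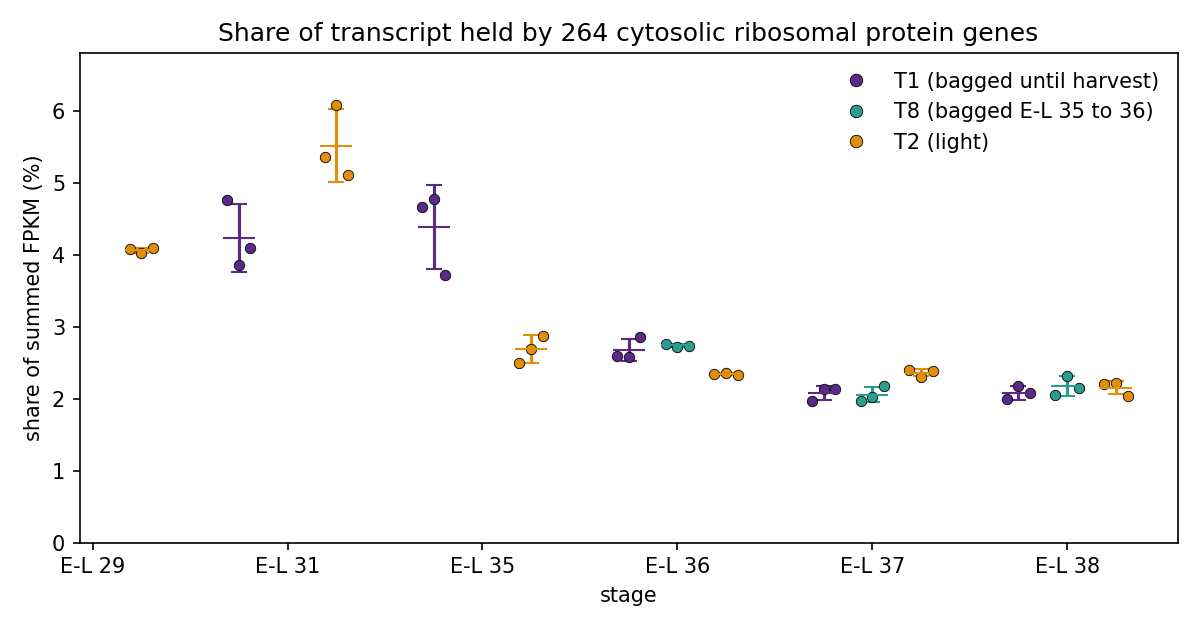
Share of the summed FPKM (percent) taken by the 264 cytosolic ribosomal protein genes, by E-L stage, with T1 left, T8 in the middle and T2 right; points are libraries and bars are means ± SD over 3 libraries. At E-L 35 the T1 libraries sit between 3.72 and 4.77% and the T2 libraries between 2.50 and 2.88%, whereas at E-L 31 the T1 libraries sit between 3.85 and 4.76% and the T2 libraries between 5.10 and 6.08%.

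By library, the share at E-L 31 was 4.76, 3.85 and 4.09% in T1, against 5.36, 6.08 and 5.10% in T2. At E-L 35 it was 4.66, 4.77 and 3.72% in T1, against 2.50, 2.69 and 2.88% in T2. The groups did not overlap at either stage, and the order of T1 and T2 was opposite at the 2 stages. The difference between means was -1.28 percentage points at E-L 31 and 1.69 points at E-L 35, and with 3 libraries against 3 the exact two-sided permutation test cannot give less than its value at both stages (p = 0.1; 0.154 after Benjamini-Hochberg adjustment over 20 comparisons of shares). Without the 10 most abundant genes in the denominator the T1 share was 5.04 ± 0.193% and the T2 share 6.10 ± 0.536% for E-L 31, and at E-L 35 T1 had 5.50 ± 0.540% and T2 3.70 ± 0.107%. Without the seed list in the denominator the T1 libraries at E-L 31 lay between 4.17 and 4.84% and the T2 libraries between 5.18 and 6.09%, still apart.

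The first question was how the genes moved through development in the light. Between E-L 29 and E-L 31 of T2, 141 of 229 members rose and 13 fell at an adjusted p under 0.05 (limma, log2(FPKM + 1) scale, Benjamini-Hochberg adjustment over all 21902 genes), against 19.2% of all genes that rose and 31.3% that fell. The median change was 0.41 for the members and -0.12 for all genes. The risers covered 75 of the 77 proteins. Summed over copies, the ratio of E-L 31 to E-L 29 ran between 0.983 (L5e, which carries the 5S rRNA) and 2.46 (S27e), with a median of 1.44. The called members with the largest rises were a low copy of the stalk protein LP1 (VIT_216s0013g01610, log2 change 1.42, SE 0.299, adjusted p = 0.000189), L39e, a very small protein of the exit tunnel (VIT_211s0149g00240, 1.34, adjusted p = 0.000137), and S29e, a zinc-binding protein of the small subunit (VIT_203s0091g00640, 1.30, adjusted p = 1.86e-05). The largest fall was that of a low copy of L10e (VIT_208s0056g00630, -2.03, adjusted p = 1.88e-06), a protein that in yeast is needed for subunit joining.

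From pea-size to véraison the direction turned. At E-L 35, against E-L 31, 189 of 229 members fell and 2 rose in T2, with background shares of 35.7% falling and 12.5% rising genes, and the median change was -0.78 for the members and -0.22 for all genes. Every one of the 77 proteins had at least 1 falling copy, and each protein's summed FPKM was lower in all 3 libraries of E-L 35 than in all 3 of E-L 31. The ratio of these sums ran between 0.219 (L34e) and 0.802 (S2e), with a median of 0.541, so no protein kept its E-L 31 level.

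L34e, a protein of the large subunit, had the steepest fall of all members. Its gene VIT_214s0108g00850 had 137, 158 and 187 FPKM at E-L 35, against 718, 1037 and 698 FPKM at E-L 31 (log2 change -2.33, SE 0.152, adjusted p = 6.88e-14). Its group means in T2 continued down, with 335 FPKM in pepper-corn berries, 818 at pea size, 161 at early véraison, 74.8 at mid-ripening, 43.9 in not quite ripe berries and 21.0 at harvest. L38e, which in mice takes part in the translation of chosen developmental mRNAs, changed by -2.27 (VIT_204s0023g00930, adjusted p = 3.45e-12), and a copy of L12e, a protein at the base of the stalk, by -2.04 (VIT_213s0019g04300, adjusted p = 4.21e-11). The abundant S6e gene, whose product is the classical target of S6 kinase, stood apart from these: VIT_203s0017g01350 had 294, 302 and 300.1 FPKM at E-L 35, against 307, 409 and 309 FPKM at E-L 31 (log2 change -0.18, adjusted p = 0.107). Both members that rose over this step carry the name of another protein, the acid phosphatase VIT_207s0005g04130 (KEGG L10e, 0.91, adjusted p = 0.00907) and the E3 ubiquitin ligase VIT_205s0020g02860 (KEGG L7Ae, 0.45, adjusted p = 0.00135).

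After véraison the changes in T2 were smaller. At E-L 36, against E-L 35, 47 members fell and 10 rose (background 10.9 and 10.6%; median -0.12 for members and 0.00 for all genes), with 29 calls instead of 57 when T2 replicate C of E-L 35 was left out. At E-L 37, against E-L 36, 33 fell and 27 rose (background 8.98 and 24.6%; medians 0.03 and 0.16). This step was sensitive to scaling: with median-of-ratios scaling, after which the median of all genes was 0.00, 76 members fell and 4 rose, with a member median of -0.17. At E-L 38, against E-L 37, 62 fell and 11 rose (background 16.1 and 9.64%; medians -0.20 and -0.05). By harvest the sums of the 77 proteins stood at a median of 0.422 of their E-L 31 level, 76 of them lower in every library, with L34e lowest at 0.0630 and S2e highest at 1.01.

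**Figure D2:**
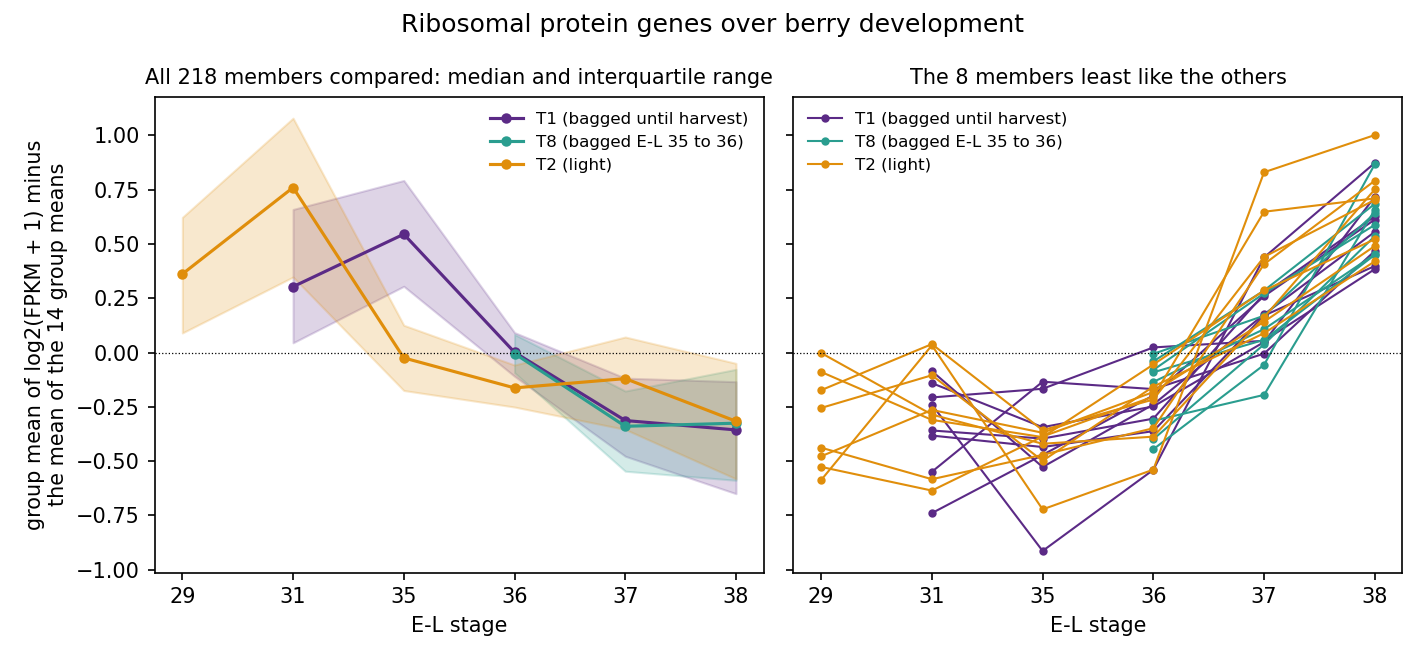
Left, median and interquartile range over 218 ribosomal protein genes of the group mean, as log2(FPKM + 1) relative to the mean of a gene's 14 group means, by E-L stage for T1, T8 and T2; right, the same quantity for the 8 members whose pattern is least like that of the other members. The T2 median peaks at E-L 31, the T1 median stays high at E-L 35, and the 8 members on the right run higher toward E-L 38.

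The question of the bagging experiment, what light exclusion does to the berry transcriptome, was then put to these genes at each stage. By the study's account the air in the bags was also slightly warmer and less humid. Light, warmth and humidity therefore cannot be told apart in these comparisons. At E-L 31, 143 of 229 members were lower in T1 than in T2 and 1 was higher. The background was 16% of all genes lower and 13% higher, and the median difference was -0.41 for the members and 0.00 for all genes. In 140 members (61.1%) all 3 T1 libraries lay below all 3 T2 libraries and in 3 (1.31%) above them, against 17.4% and 13.7% of all tested genes. The lower members were 54 of 83 small-subunit genes (median -0.41), 82 of 137 large-subunit genes (median -0.39) and 7 of 9 stalk genes (median -0.66), and they covered 71 proteins. Summed over copies, the ratio of T1 to T2 ran between 0.512 (L39e) and 1.04 (S3Ae) with a median of 0.725, and 65 of the 77 sums did not overlap between the groups.

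Among the 10 most abundant members 7 were lower in T1 at E-L 31 and 3 were not called. S27e (VIT_201s0150g00310) had 815, 628 and 657 FPKM in T1 and 1041, 1464 and 919 FPKM in T2 at E-L 31 (log2 difference -0.69, SE 0.136, adjusted p = 0.00028). S6e (VIT_203s0017g01350) had 274, 233 and 249 FPKM in T1 and 307, 409 and 309 FPKM in T2 (-0.43, SE 0.0917, adjusted p = 0.000657). L44e, a zinc-binding protein near the exit site of tRNA (VIT_213s0064g00880), had 391, 245 and 333 FPKM in T1 and 502, 631 and 504 FPKM in T2 (-0.77, adjusted p = 0.000119). In each of these genes the highest T1 library stayed below the lowest T2 library, and so it did in S20e (-0.38, adjusted p = 0.0171), L27Ae (VIT_200s0225g00020, -0.50, adjusted p = 0.000794) and L35e (VIT_200s0317g00130, -0.49, adjusted p = 0.00137). S3e (VIT_209s0002g01460, -0.27, adjusted p = 0.0285) was called with overlapping groups. The others were S3Ae (VIT_214s0030g01810), with 419, 415 and 348 FPKM in T1 and 385, 365 and 389 FPKM in T2 (0.05, adjusted p = 0.74), S8e (VIT_219s0090g01570, -0.07, adjusted p = 0.657) and L3e of the peptidyl transferase centre (VIT_218s0072g00340, -0.02, adjusted p = 0.901).

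Among called members with 5 FPKM or more in T1 or T2, the largest differences at E-L 31 were those of L39e, a low LP1 copy and L37e; an L17e copy with 0 to 0.48 FPKM in T1 and 0.7 to 3.47 FPKM in T2 (VIT_218s0001g05140, -1.37) went further. L39e (VIT_211s0149g00240) had 75.05, 41.6 and 75.7 FPKM in T1 and 121, 148 and 130 FPKM in T2 (-1.08, SE 0.275, adjusted p = 0.00312). L37e, a zinc-binding protein (VIT_204s0008g03900), had 61.0, 40.4 and 49.3 FPKM in T1 and 87.6, 112 and 98.0 FPKM in T2 (-0.98, SE 0.123, adjusted p = 4.68e-07). The low LP1 copy VIT_216s0013g01610 had means of 3.16 FPKM in T1 and 6.96 FPKM in T2 (-0.98, adjusted p = 0.0128). T1 replicate B, the library with the most seed storage transcripts, was the lowest T1 library in L39e, L37e, L44e, S27e and S6e. The exception among the called members was the low L10e copy VIT_208s0056g00630, higher in T1 with 2.14, 8.37 and 2.55 FPKM, against 0.65, 1.31 and 2.12 FPKM in T2 (adjusted p = 0.0107), and its high T1 library is again replicate B.

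With the summed seed list as a covariate 73 members were called at E-L 31, and the median difference of the 229 was -0.37, against -0.41 without it. With T1 replicate A, the T1 library with the fewest seed transcripts, as the only T1 library at this stage 50 were called and the median was -0.29. In that fit the lone library is assumed to vary like the other groups, and fewer libraries alone lower a count of calls. When each of the 6 libraries at E-L 31 was left out in turn, between 113 and 146 were called. A fit on the 6 libraries alone called 4, and L39e (adjusted p = 0.0877), L37e (0.0564) and LP1 (0.199) then missed the threshold.

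At E-L 35 the difference had the opposite sign. Here 166 of 229 members were higher in T1 than in T2 and 2 were lower, against a background of 6.71% higher and 5% lower genes. The median difference was 0.57 for the members and 0.00 for all genes, and in 179 members (78.2%) all 3 T1 libraries lay above all 3 T2 libraries, against 16.5% of all tested genes. The higher members were 63 of 83 small-subunit genes (median 0.62), 95 of 137 large-subunit genes (median 0.53) and 8 of 9 stalk genes (median 0.66). All 77 proteins had a higher copy, and all 77 sums were higher in every T1 library than in every T2 library, with ratios between 1.22 (S2e) and 2.33 (S28e) and a median of 1.57. The storage sums of T1 at E-L 35 were at most 303 FPKM.

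Among called members with 5 FPKM or more in T1 or T2, L38e had the largest increase and showed the reversal in full; an S15e copy listed at 0 in the 3 T2 libraries of this stage, with 0.88, 5.57 and 0.89 FPKM in T1 (VIT_211s0103g00280), stood above it only on the fitted scale. VIT_204s0023g00930 had 202, 183 and 127 FPKM in T1 at E-L 35 and 57.1, 68.9 and 78.9 FPKM in T2 (log2 difference 1.29, SE 0.178, adjusted p = 6.37e-06), and 214, 150.1 and 163 FPKM in T1 at E-L 31 and 324, 395 and 285 FPKM in T2 (-0.93, adjusted p = 0.000184). The T1 libraries of both stages thus lay between the T2 libraries of E-L 31 and those of E-L 35. S28e, a small protein near the path of the mRNA (VIT_208s0007g07210), had 316, 331 and 222 FPKM in T1 and 101, 121 and 132 FPKM in T2 at E-L 35 (1.28, SE 0.141, adjusted p = 1.78e-07). L34e (VIT_214s0108g00850) had 409, 428 and 283 FPKM in T1 and 137, 158 and 187 FPKM in T2 (1.20, SE 0.152, adjusted p = 1.99e-06). In T1 replicate C was the lowest library of these genes and was still above all T2 libraries.

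All 10 of the most abundant members were higher in T1 at E-L 35, among them S3Ae (0.64, adjusted p = 6.57e-06), S8e (0.70, adjusted p = 1.95e-05) and L3e (0.73, adjusted p = 2.26e-07), which were not called at E-L 31. S27e had 574, 534 and 411 FPKM in T1 and 264, 290 and 326 FPKM in T2 at E-L 35 (0.78, SE 0.136, adjusted p = 0.000169). S6e had 421, 450.2 and 378 FPKM in T1 and 294, 302 and 300.1 FPKM in T2 (0.47, adjusted p = 0.000569). S20e, a protein at the head of the small subunit (VIT_216s0022g01460), had 590.2, 525 and 450.3 FPKM in T1 and 263, 278 and 313 FPKM in T2 (0.87, adjusted p = 8.6e-06). S6e, whose T2 change between these stages was not called, had 2 of its 3 T1 libraries at E-L 35 above every T2 library of either stage, and the third (378 FPKM) above all but T2 replicate B of E-L 31 (409 FPKM).

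The stalk recruits the translation factors to the ribosome and consists of LP0 with the paired acidic proteins LP1 and LP2. LP1 (VIT_202s0025g02780) had 77.0, 59.9 and 68.8 FPKM in T1 and 101, 128 and 93.7 FPKM in T2 at E-L 31 (-0.64, adjusted p = 1.8e-06), and 96.0, 96.3 and 79.9 FPKM in T1 and 61.6, 64.3 and 65.7 FPKM in T2 at E-L 35 (0.50, adjusted p = 0.000188). LP2 (VIT_206s0061g01600) had 141, 138 and 135 FPKM in T1 and 197, 256 and 206 FPKM in T2 at E-L 31 (-0.66, adjusted p = 1.03e-05), and 191, 203 and 163 FPKM in T1 and 97.5, 108 and 114 FPKM in T2 at E-L 35 (0.79, adjusted p = 2.04e-06). The LP0 copy with the highest mean over all libraries behaved differently at the first stage. This copy, VIT_213s0019g03970, had 87.0, 89.8 and 85.5 FPKM in T1 and 88.1, 87.3 and 88.9 FPKM in T2 at E-L 31 (-0.01, adjusted p = 0.96), and 81.9, 90.7 and 66.5 FPKM in T1 and 51.8, 59.7 and 61.2 FPKM in T2 at E-L 35 (0.46, adjusted p = 0.000409). It does not stand for LP0 as a whole, since another copy, VIT_213s0067g00270, led at pea size in T2. Over the 14 group means, the Pearson correlation with the mean of the other members was 0.947 for VIT_213s0067g00270 and -0.0752 for VIT_213s0019g03970.

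S27Ae and L40e are made as fusions with ubiquitin, which is cut off to leave the ribosomal protein. The main S27Ae gene (VIT_207s0005g02160) had 321, 237 and 283 FPKM in T1 and 356, 322 and 349 FPKM in T2 at E-L 31 (-0.30, adjusted p = 0.0267), and 349.7, 380.1 and 281 FPKM in T1 and 199, 193 and 216 FPKM in T2 at E-L 35 (0.72, adjusted p = 9.42e-06). The main L40e gene (VIT_216s0098g01190) had 165, 150.1 and 162 FPKM in T1 and 213, 262 and 220.4 FPKM in T2 at E-L 31 (-0.54, adjusted p = 0.000143), and 187, 186 and 140.3 FPKM in T1 and 107, 111 and 111 FPKM in T2 at E-L 35 (0.63, adjusted p = 5.69e-05). Both fusion genes were lower in T1 at E-L 31 and higher at E-L 35, with no overlap between T1 and T2.

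The 2 members lower in T1 at E-L 35 were another L40e copy and a gene named as an E3 ubiquitin ligase. VIT_211s0118g00660 (L40e) had 16.7, 16.1 and 17.3 FPKM in T1 and 18.8, 20.7 and 21.7 FPKM in T2 (-0.27, SE 0.0865, adjusted p = 0.0361). VIT_205s0020g02860 (KEGG L7Ae) had 16.3, 15.9 and 17.2 FPKM in T1 and 21.9, 21.1 and 20.8 FPKM in T2 (-0.35, SE 0.113, adjusted p = 0.0379). Both lay close to the threshold and lost the call under some of the alternatives.

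The change of the T1 effect between the stages was tested itself, as the T1 minus T2 difference at E-L 31 less that at E-L 35. It was negative for 185 members and positive for 3 at an adjusted p under 0.05, against 14% negative and 9.75% positive among all genes, and its median was -0.99 for the members and -0.01 for all genes. The most negative values belonged to L38e (-2.22, adjusted p = 2.01e-07), S28e (-1.95, adjusted p = 4.12e-08) and a low copy of L27Ae (VIT_207s0005g05190, -1.86, adjusted p = 0.0156). Of the 143 members lower at E-L 31, 125 (87.4%) were among the 166 higher at E-L 35, of which they made up 75.3%. Each of these calls covered most of the 229 tested members, so a large overlap follows from the counts alone. The overlap itself was not tested and was not counted over all genes. There were 45 members called at neither stage.

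**Figure D3:**
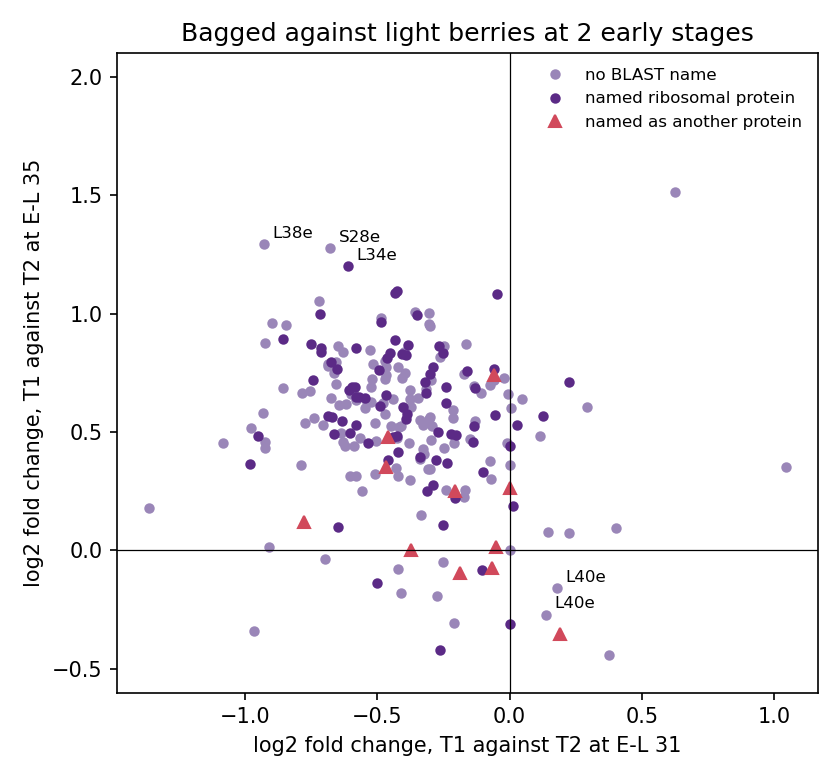
Log2 difference of T1 minus T2 at E-L 31 (horizontal) and at E-L 35 (vertical) for the 229 tested ribosomal protein genes, on the log2(FPKM + 1) scale; triangles are members that BLAST names as another protein. Most points lie in the upper left, lower in T1 at E-L 31 and higher at E-L 35, with L38e, S28e and L34e at its top, 2 labelled L40e copies below 0 on the vertical axis, and an S15e copy, listed at 0 in the T2 libraries of E-L 35, by itself in the upper right.

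The transcript of a gene for berry colour differed between the groups at E-L 35 as well, while colour itself is not part of these data. UFGT, the enzyme that makes the first stable anthocyanins at véraison, had 27.6 to 34.5 FPKM in T1 libraries and 89.6 to 91.4 FPKM in T2 libraries at E-L 35. The T1 share of ribosomal transcripts at this stage (4.38%) was close to the T2 share at E-L 29 (4.06%), and the T1 share at E-L 36 (2.67%) to the T2 share at E-L 35 (2.69%). Anthocyanin genes themselves respond to light, and the part of a difference in ripening progress in the ribosomal values was not tested.

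Later in ripening the T1 difference was small. At E-L 36, 7 members were higher in T1 and 0 lower (background 1.07% higher and 1.21% lower), 66 (28.8%) had an unadjusted p under 0.05, against 13.3% of all genes, and the median was 0.13. The named ones are L37e (VIT_209s0002g04440), with 39.7, 38.2 and 35.3 FPKM in T1 and 23.0, 26.8 and 29.5 FPKM in T2 (0.50, adjusted p = 0.0364), S7e (VIT_214s0006g02830), with 78.5, 74.1 and 86.7 FPKM in T1 and 62.7, 61.3 and 52.1 FPKM in T2 (0.44, adjusted p = 0.0307), and L35e (VIT_200s0317g00130, 0.44, adjusted p = 0.0291). In 85 members (37.1%) all T1 libraries were above all T2 libraries and in 2 below, with 10.1% of all tested genes above in the same way. The fit on the 6 libraries alone called 0 and median-of-ratios scaling 14, and the count was 2 without T2 replicate B, 3 without T2 replicate C and 1 without T1 replicate C.

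At E-L 37 the sign was negative again: 14 members were lower in T1 and 0 higher (background 3.35% lower and 0.53% higher), 63 (27.5%) had an unadjusted p under 0.05, against 17.4% of all genes, and the median was -0.16 for the members and -0.08 for all genes. S29e (VIT_211s0016g00840) had 67.5, 79.9 and 90.4 FPKM in T1 and 112, 109.5 and 116 FPKM in T2 (-0.51, SE 0.129, adjusted p = 0.0213). S15Ae (VIT_213s0019g00530) had 44.0, 47.6 and 42.9 FPKM in T1 and 63.0, 57.6 and 65.9 FPKM in T2 (-0.46, adjusted p = 0.00756), and S12e (VIT_209s0070g00050) 22.1, 27.4 and 28.9 FPKM in T1 and 36.1, 35.3 and 35.3 FPKM in T2 (-0.44, adjusted p = 0.0276). In all, 6 of the 14 belong to the small subunit and 8 to the large subunit. With median-of-ratios scaling 1 member was called at this stage, and with T1 replicates A or B or T2 replicates A, B or C left out 2, 7, 6, 5 and 3 were called, in that order.

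At harvest no difference was called. Limma called 0 members in either direction at E-L 38 (background 0.0639% higher and 0.516% lower), 11 (4.80%) had an unadjusted p under 0.05, against 7.32% of all genes, and the median was -0.05. The protein sums had ratios of T1 to T2 between 0.866 and 1.06, with a median of 0.958, and 7 of the 77 sums were lower in all T1 libraries than in all T2 libraries. Among single genes, 18 members (7.86%) were lower in the same way, near the 8.89% of all tested genes.

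**Figure D4:**
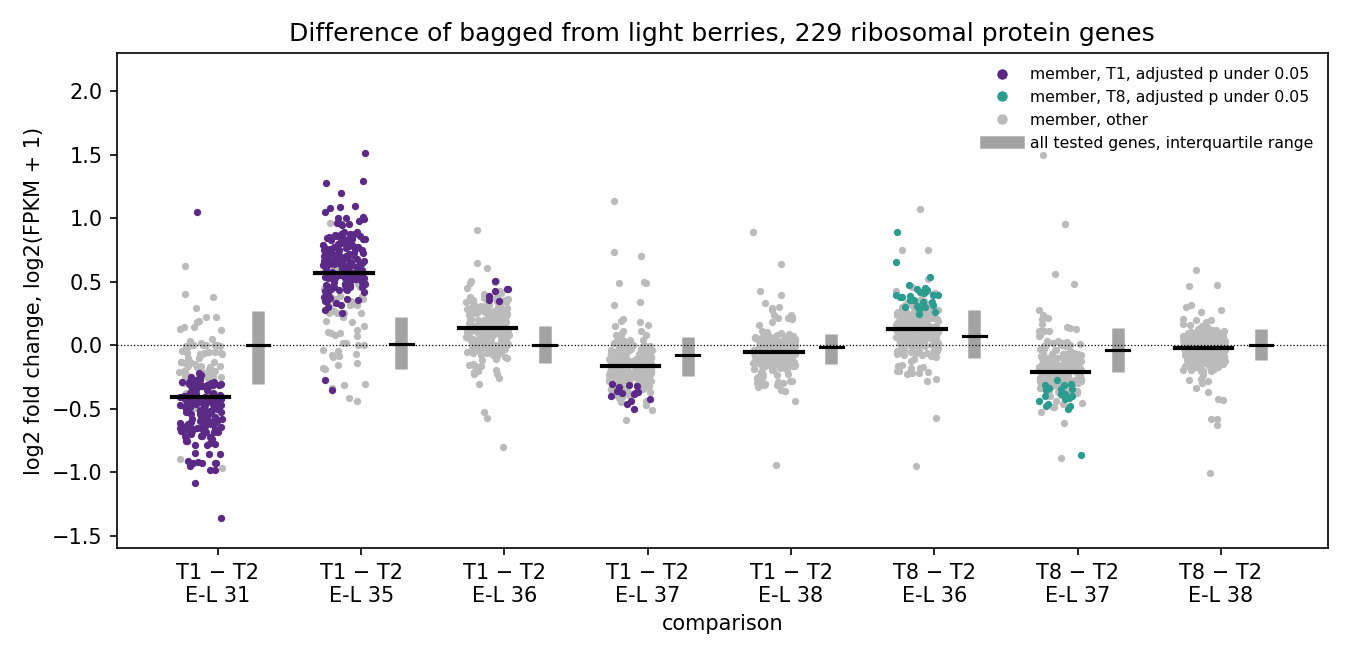
Log2 difference of the 229 tested ribosomal protein genes in the 8 comparisons of bagged with light-exposed berries (T1 or T8 minus T2), with called members coloured; the bar beside each column is the interquartile range of all 21902 genes and black lines are medians. The columns at E-L 31 and E-L 35 of T1 lie on opposite sides of 0 with medians of -0.41 and 0.57, and all others have medians between -0.21 and 0.13.

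Bagging from véraison to mid-ripening only (T8) was compared with the same T2 libraries as T1. At E-L 36, when the bag was taken off, 28 members were higher in T8 and 0 lower (background 9.27% higher and 2.64% lower), 69 (30.1%) had an unadjusted p under 0.05, against 24.5% of all genes, and the median was 0.13 for the members and 0.07 for all genes. The 28 of 229 are close to the background share. In 92 members (40.2%) all T8 libraries lay above all T2 libraries and in 5 (2.18%) below, against 22.5% and 8.83% of all tested genes. The share of summed FPKM was 2.74 ± 0.0214% in T8, against 2.34 ± 0.0138% in T2. L4e, which lines the exit tunnel (VIT_206s0004g00320), had 106, 95.3 and 79.2 FPKM in T8 and 46.3, 51.0 and 51.7 FPKM in T2 (0.89, SE 0.255, adjusted p = 0.018), with 64.4, 74.3 and 71.3 FPKM in T1 at the same stage. S10e (VIT_202s0025g00310) had 47.7, 47.3 and 44.9 FPKM in T8 and 35.2, 26.6 and 26.6 FPKM in T2 (0.66, adjusted p = 0.00661), and the L12e copy VIT_213s0019g04300 had 31.8, 24.0 and 24.2 FPKM in T8 and 19.4, 17.1 and 17.2 FPKM in T2 (0.54, adjusted p = 0.0433). The seed list summed to 775 to 2260 FPKM in the T8 libraries of this stage and 142 to 188 FPKM in those of T2, and its part in the result was not tested beyond the fit with it as a covariate, which called 12. Median-of-ratios scaling called 12 and equal totals 48. The count was 9 without T8 replicate A, 13 without T8 replicate B and 18, 13 and 16 without T2 replicates A, B and C.

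At E-L 37, after the bags of T8 had been off since E-L 36, 20 members were lower in T8 and 0 higher (background 2.48% lower and 3.16% higher), 109 (47.6%) had an unadjusted p under 0.05, against 20.3% of all genes, and the median was -0.21 for the members and -0.04 for all genes. In 123 members (53.7%) all T8 libraries lay below all T2 libraries and in 5 (2.18%) above, against 17.1% and 12.3% of all tested genes. S15e, a protein of the small-subunit head (VIT_211s0103g00290), had 45.8, 42.04 and 41.3 FPKM in T8 and 101, 68.6 and 71.4 FPKM in T2 (-0.86, SE 0.212, adjusted p = 0.014). S8e (VIT_200s0337g00060) had 59.0, 48.5 and 55.4 FPKM in T8 and 78.2, 68.5 and 85.0 FPKM in T2 (-0.50, adjusted p = 0.00769), and S29e (VIT_211s0016g00840) 81.2, 81.6 and 78.0 FPKM in T8 against the T2 values above (-0.48, adjusted p = 0.0236). The seed covariate left 9 calls and median-of-ratios scaling 13, the 6-library fit of this stage called 31, without T8 replicates A or B 9 and 6 were called, and without T2 replicates A or C 7 and 6.

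The T8 effect at E-L 36 less that at E-L 37, tested as such, was positive for 17 members and negative for 0 (background 1.73% positive and 0.393% negative), with medians of 0.35 for the members and 0.12 for all genes. L11e, which binds the 5S rRNA (VIT_212s0028g01800), led it: it had 36.3, 35.1 and 34.8 FPKM in T8 and 28.8, 27.7 and 28.4 FPKM in T2 at E-L 36, and 20.9, 22.3 and 24.3 FPKM in T8 and 31.7, 28.6 and 29.1 FPKM in T2 at E-L 37 (0.70, adjusted p = 0.0273). L35e (VIT_200s0317g00130, 0.69, adjusted p = 0.018) and S7e (VIT_217s0000g03530, 0.68, adjusted p = 0.0187) followed. With median-of-ratios scaling 2 members were called. At harvest limma called 0 members between T8 and T2 in either direction (background 0.0457% higher and 0.0228% lower), 8 (3.49%) had an unadjusted p under 0.05, against 6.52% of all genes, and the median was -0.02.

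The bagged groups differed little from each other at E-L 36. In T8, against T1, 2 members were higher and 1 lower (background 5.45% higher and 0.575% lower), 16 (6.99%) had an unadjusted p under 0.05, against 17.9% of all genes, and the medians were -0.01 for the members and 0.07 for all genes. S5e, which sits at the tRNA exit site (VIT_212s0055g00770), had 21.8, 22.6 and 21.1 FPKM in T8 and 19.6, 17.5 and 15.8 FPKM in T1 (0.30, adjusted p = 0.0375), and L31e (VIT_213s0064g01240) had 80.7, 89.3 and 90.3 FPKM in T8 and 107, 101 and 113 FPKM in T1 (-0.30, adjusted p = 0.0456). These calls were few and fragile: 0 were left without T8 replicate A or B or T1 replicate B, and 1 without T8 or T1 replicate C.

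The stage steps inside the bagged groups use the same libraries as the comparisons above. They describe the same values in another way and are no separate evidence. In T1, 77 members rose and 12 fell at E-L 35, against E-L 31 (background 13% rising and 33.5% falling; medians 0.17 and -0.21), where T2 had 2 rising and 189 falling. With the seed list as a covariate 24 were called in this step and with T1 replicate A alone at E-L 31 47 were. S3e, which lies at the entry of the mRNA channel, was among the largest risers (VIT_204s0008g01750, 0.85, adjusted p = 8.16e-11), next to S29e (VIT_211s0016g00840, 0.83, adjusted p = 3.25e-06), which had 143, 127 and 115 FPKM at E-L 35 and 93.1, 57.6 and 68.2 FPKM at E-L 31. The fall came 1 stage later: at E-L 36, against E-L 35, 151 members fell and 2 rose in T1 (background 14.5% falling and 12.2% rising; medians -0.51 and -0.01). L34e led it again, with 101, 97.2 and 122 FPKM at E-L 36 and 409, 428 and 283 FPKM at E-L 35 (-1.78, adjusted p = 5.18e-10), before L12e (-1.65, adjusted p = 3.63e-08) and S28e (-1.59, adjusted p = 9.17e-10).

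It went on at E-L 37, where 109 members were lower in T1 than at E-L 36 and 5 higher (background 11.6% falling and 17.3% rising; medians -0.29 and 0.06). In T8 the same step had 120 falling and 5 rising members (background 12.6% falling and 15.8% rising; medians -0.34 and 0.03). The T8 and T1 steps have no library in common. L26e, which lies near the tunnel exit (VIT_207s0129g00090), changed by -1.33 in T1 (adjusted p = 9.04e-07), and L34e by -1.30 (adjusted p = 7.74e-08). At harvest, against E-L 37, 36 members fell and 18 rose in T1 (background 15.4% falling and 15.3% rising), and 24 fell and 30 rose in T8 (background 15.4% falling and 12.4% rising). S15e (VIT_211s0103g00290), low in T8 at E-L 37, had 82.3, 132 and 103 FPKM in T8 at E-L 38, against 45.8, 42.04 and 41.3 FPKM at E-L 37 (1.25, adjusted p = 4.09e-05).

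The highest stage of each gene was counted without a test, and the same count over all genes was not made. Of 218 members with a group mean of at least 5 FPKM, 21 had their highest T2 mean in pepper-corn berries, 168 at pea size, 3 at early véraison, 0 at mid-ripening, 7 in not quite ripe berries and 19 at harvest. In T1, where pepper-corn berries were not sampled, 50 had it at pea size, 148 at early véraison, 1 at mid-ripening, 3 in not quite ripe berries and 16 at harvest. The order of E-L 31 and E-L 35 in T1 was not firm. Without the seed list in the denominator the T1 share of summed FPKM was 4.44 ± 0.354% at E-L 31 and 4.39 ± 0.577% at E-L 35 (SD, n = 3). T1 replicate A of E-L 31, with the fewest seed transcripts of its group, had a share of 4.76% of all FPKM.

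The course of each member was compared with that of the others, and the same correlation was not computed for other genes. Over the 14 group means, the Pearson correlation of a member with the mean of the other members was at least 0.9 for 110 of the 218 and at least 0.5 for 180, with a median of 0.901; these are descriptions, since all points share the same libraries. The members most like the rest were L40e (VIT_216s0098g01190, r = 0.994), S30e (VIT_209s0002g02640, r = 0.993), which in mammals is made as a fusion with a ubiquitin-like protein, and S11e (VIT_204s0008g06220, r = 0.992). Of the 11 members that BLAST names as another protein, 5 reached 0.5.

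A correlation under 0 was found for 20 members, 4 of them named as another protein. The lowest belonged to L7e (VIT_209s0054g00030, r = -0.853), S5e (VIT_212s0055g00770, r = -0.798), L40e (VIT_209s0054g01880, r = -0.780) and S4e (VIT_213s0067g01820, r = -0.710). S5e had 14.4, 14.7 and 13.8 FPKM in T2 at E-L 31, 18.2, 16.5 and 16.3 FPKM at E-L 36, 30.8, 27.3 and 30.2 FPKM at E-L 37 and 41.6, 38.2 and 36.3 FPKM at E-L 38. The steps to E-L 37 (0.76, adjusted p = 8.41e-08) and to E-L 38 (0.39, adjusted p = 0.00137) were both called, so this copy was highest at harvest. The L40e copy VIT_209s0054g01880 had 31.3, 31.98 and 26.6 FPKM in T2 at E-L 31, 39.7, 39.5 and 40.5 FPKM at E-L 37 and 50.5, 50.1 and 52.7 FPKM at E-L 38, with called rises at E-L 37 (0.32, adjusted p = 0.000774) and E-L 38 (0.35, adjusted p = 0.000494). The L7e copy VIT_209s0054g00030 had 16.7, 13.8 and 14.7 FPKM at E-L 37, against 5.46, 8.90 and 9.94 FPKM at E-L 36 (0.85, adjusted p = 0.000892). The acid phosphatase under L10e (VIT_207s0005g04130) is an example of a member with another name and another course, with T2 means of 15.5, 13.7, 26.7, 13.9, 1.9 and 0.2 FPKM from E-L 29 to E-L 38.

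Since the members differ in their course, the copies of one protein can trade places. Among the 73 proteins with 2 or more copies that reached a group mean of 5 FPKM, 23 had a different leading copy at E-L 38 than at E-L 31 in T2, and in 48 the share of some copy in the protein's sum moved by 10 percentage points or more. The median of the largest move was 13.2 points, and the log2 changes of the copies of one protein spread over a median of 1.30. Members named as another protein were counted as copies here. How reads that fit several near-identical copies were assigned is not stated, so the split between copies is less certain than their sum.

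S9e, which lies where the mRNA enters the small subunit, is an example. In T2 its copy VIT_214s0108g00460 made 31.2 ± 1.64% of the S9e sum at harvest, against 69.3 ± 1.98% at pea size (SD, n = 3), while VIT_217s0000g05970 made 43.9% at harvest and 18.7% at pea size. In FPKM, VIT_214s0108g00460 had 65.1, 63.1 and 60.4 at harvest and 326, 333 and 334 at pea size, and VIT_217s0000g05970 had 95.2, 93.9 and 77.6 at harvest and 75.8, 90.7 and 102 at pea size. The first copy was thus lower at harvest in every library, and the values of the second overlapped.

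LP2 and LP0 of the stalk had such a change of the leading copy, while in LP1 the copy VIT_202s0025g02780 led at both stages (42.7% at harvest and 47.2% at pea size). In LP2, VIT_208s0007g03620 made 28.9 ± 3.64% of the sum at harvest and 65.7 ± 1.43% at pea size, and VIT_206s0061g01600 made 69.0% at harvest and 33.0% at pea size. The LP2 sum itself was 180 FPKM at harvest and 670 FPKM at pea size. By the values given above, VIT_206s0061g01600 also fell between pea size and early véraison in T2, so it gained share and not FPKM. The copy that lost share, VIT_208s0007g03620, was also the one with the larger difference at E-L 35, with 274, 256 and 184 FPKM in T1 and 102, 112 and 140 FPKM in T2 (1.00, adjusted p = 3.23e-05). In LP0, VIT_213s0067g00270 made 27.2% at harvest and 53.8% at pea size, and in L9e VIT_216s0098g00730 made 18.3 ± 1.57% at harvest and 52.3 ± 1.67% at pea size. L7e gives a case in which a rising copy takes part: VIT_209s0070g00130 made 29.3% at harvest and 13.3% at pea size, and VIT_211s0052g00290 made 22.0% at harvest and 50.3% at pea size. VIT_209s0070g00130 had T2 means of 86.7 FPKM at harvest and 60.4 FPKM at pea size.

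**Figure D5:**
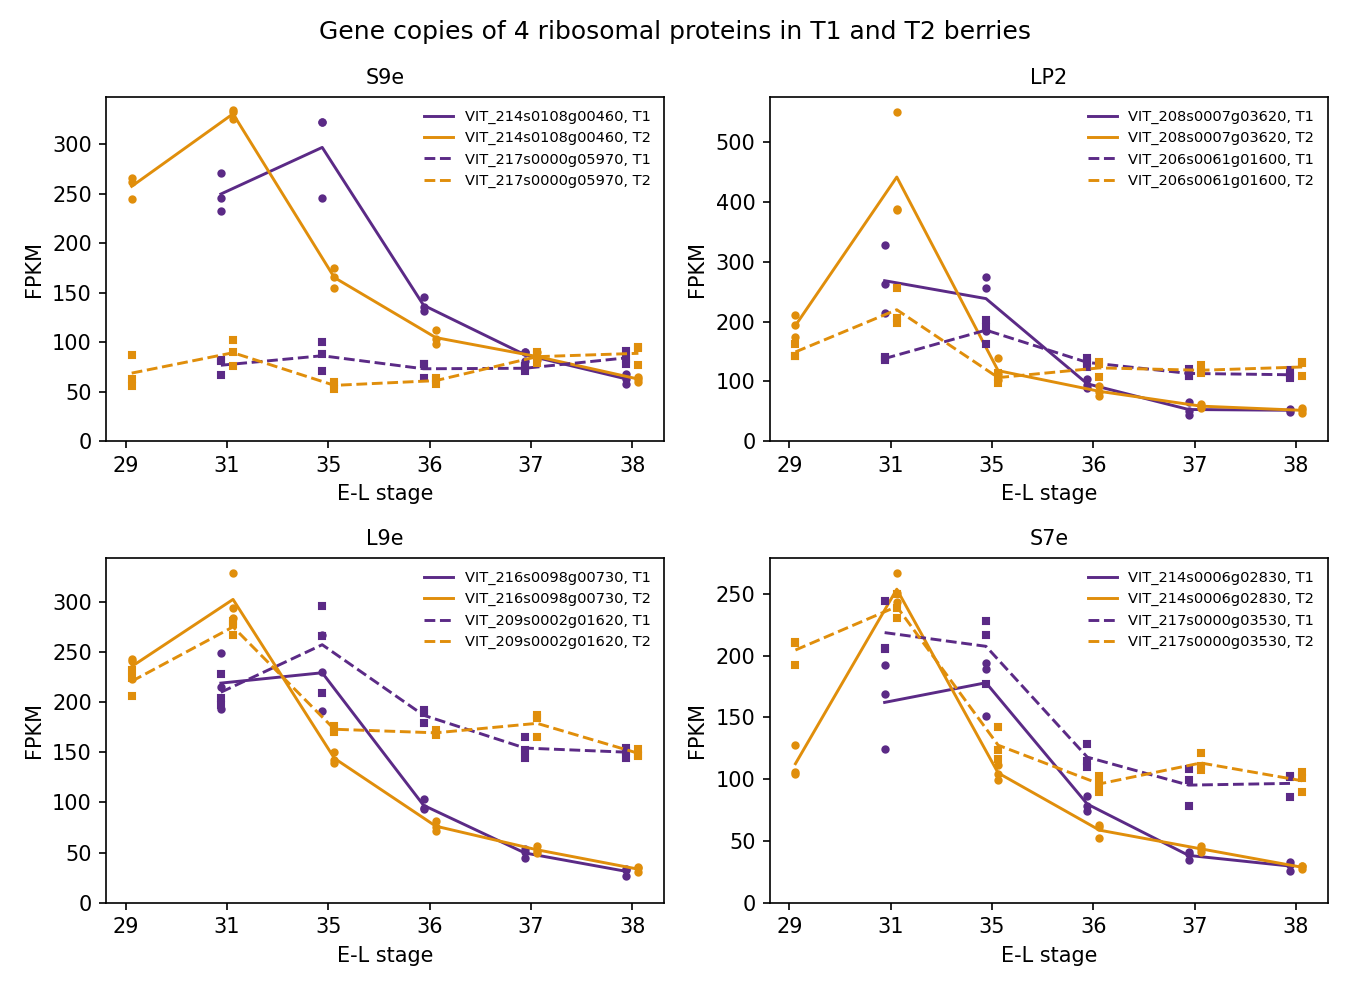
FPKM by E-L stage of a pair of copies each of S9e, LP2, L9e and S7e in T1 and T2; points are libraries and lines join group means, and the pairs were chosen after their values had been seen. In each panel 1 copy is far lower at E-L 38 than at E-L 31 (for S9e 60.4 to 65.1 FPKM, against 326 to 334 FPKM, in T2) and the other keeps more of its level.

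The other genes of protein synthesis were taken as lists from their KEGG terms. At E-L 31, 39 of 94 tested ribosomal proteins of the organelle (bacterial) type were lower in T1 and 0 higher (median -0.33). Of all genes 16% were lower and 13% higher. Elongation factors had 2 lower and 1 higher of 20 (median 0.00), and initiation factors 11 lower and 7 higher of 56 (median -0.01), near the shares of all genes. Ribosome biogenesis factors, which build the particle in the nucleolus, had 9 lower and 43 higher of 162 (median 0.14), the opposite direction from the ribosomal proteins. That list includes 25 genes with the term nucleolin and 25 with the term nucleolar protein 12, which can stand for other RNA-binding proteins. It was not counted without them, and no list was counted with the seed list as a covariate. RNA polymerase I, which transcribes the large rRNAs, had 0 lower and 3 higher of 11.

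At E-L 35, where the ribosomal proteins were higher in T1, so were 6 of 20 elongation factors and 0 were lower (median 0.37), with 6.71% of all genes higher and 5% lower. Initiation factors had 14 higher and 1 lower of 56 (median 0.15), biogenesis factors 24 higher and 2 lower of 162 (median 0.09), organelle-type ribosomal proteins 10 higher and 2 lower of 94 (median 0.16), and RNA polymerase I and the 3 TOR and S6 kinase genes had 0 in either direction. The largest share among these lists was that of the elongation factors. All these shares were below that of the cytosolic ribosomal proteins, and no test of the lists against each other was run.

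Among the factors, the main gene for elongation factor 1-alpha, which brings tRNA to the ribosome (VIT_206s0004g03240), had 809 ± 95.2 FPKM at E-L 35 and 3032 ± 393 FPKM at E-L 31 in T2 (SD, n = 3; -1.90, adjusted p = 1.19e-13), and at E-L 35 it was higher in T1 by 0.77. The initiation factor eIF1, which helps to find the start codon (VIT_219s0090g00420), had 112 FPKM at E-L 35 and 468 FPKM at E-L 31 in T2 (-2.03, adjusted p = 3.76e-12). In the same step, in which 35.7% of all genes fell and 12.5% rose, 8 of 20 elongation factors fell and 2 rose, 29 of 56 initiation factors fell and 9 rose, 58 of 162 biogenesis factors fell and 8 rose, and 54 of 94 organelle-type ribosomal proteins fell and 3 rose. The share of falling elongation and biogenesis factors was near that of all genes.

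At E-L 37, against E-L 36, 70 of 162 biogenesis factors rose and 7 fell in T2 (median 0.33), where 24.6% of all genes rose and 8.98% fell, and with median-of-ratios scaling 34 rose and 13 fell (median 0.15). UTP30 (VIT_215s0021g02155) had 19.3 FPKM at E-L 37 and 8.92 FPKM at E-L 36 (1.03, adjusted p = 3.5e-07), and YTM1, a large-subunit assembly factor (VIT_214s0068g00410), had 29.4 FPKM at E-L 37 and 16.2 FPKM at E-L 36 (0.83). TOR itself (VIT_203s0088g00450) was 0.61 higher in T1 pea-sized berries than in those of T2 (adjusted p = 0.00048), and in T1 it had 15.2 FPKM at E-L 35 and 21.1 FPKM at E-L 31 (-0.45, adjusted p = 0.00389). The 2 S6 kinase genes moved in opposite directions over that step, VIT_208s0058g01440 with 20.4 FPKM at E-L 35 and 42.1 FPKM at E-L 31 (-1.01, adjusted p = 2.25e-09) and VIT_217s0000g07520 with 16.5 FPKM at E-L 35 and 9.10 FPKM at E-L 31 (0.82). These TOR and S6 kinase values rest on the T1 libraries of E-L 31 and were not looked at with the seed list as a covariate.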

How the data were processed

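RNA was sequenced from deseeded berries of 14 groups (3 treatments, 6 stages, 3 biological replicates each, 42 libraries). The authors aligned the reads to the PN40024 grape genome (Bowtie2 2.2.5 in the submitters' processing notes) and deposited 1 table of FPKM values for 28940 genes with KEGG and BLAST annotation. The counting tool and the treatment of reads that fit several genes are not given in the sources used here. FPKM are relative to the other genes of a library and to gene length. The table holds no read numbers per gene, and only 10.8% of the genes examined had values in whole-read steps, so no count test and no counting interval was used. Library read totals stated by the study were not used here.

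Here, log2(FPKM + 1) values of the 21902 genes that averaged 1 FPKM or more in some group were fitted with limma 3.58.1 (R 4.3.3) as 14 group means over all 42 libraries (28 residual degrees of freedom, trended variance), with Benjamini-Hochberg adjustment over all genes in each comparison. A gene was called at an adjusted p under 0.05, at any fold. Log2 differences understate the change of low genes. The study's own test, NOISeq, was not used. Shares of summed FPKM were compared by exact two-sided permutation tests. The plan had given shares no p, since the members were chosen with earlier results of these data known. Python 3.11.15 with pandas 2.3.3, numpy 2.4.6, scipy 1.17.1 and matplotlib 3.10.9 made the tables and plots. The fit was tested on simulated data.

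Named members are, per comparison, up to 3 called increases and 3 called decreases of largest size where 1 of the groups averaged 5 FPKM or more, the 10 most abundant members and the leading copies of 8 proteins, the 8 least and 3 most alike in course, the leading and lowest copies where copies are described, and up to 3 genes per list by adjusted p. Other members are named as values only, chosen after they were seen. The members, lists and rules were chosen with earlier results of these data known.

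Alternatives were median-of-ratios scaling, totals scaled to an equal sum, a pseudocount of 0.1, no filter, fits on the groups compared only, a replicate block and leaving out each library. Chosen after seeing the data were the summed seed list as a covariate, T1 replicate A alone at E-L 31, leaving out members named as another protein, and shares without the seed list. No promoter or protein sequence was available for use, and none is shown.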

Additional observations from a re-analysis of the deposited data

Results flagged for a closer look

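The effect of bagging from the pepper-corn stage differed between E-L 31 and E-L 35 by its own test (limma) in 188 members. Positive differences of the effects (E-L 31 less E-L 35) were found for VIT_205s0020g02860 (KEGG L7Ae, named an E3 ubiquitin ligase, 0.54), VIT_211s0118g00660 (L40e, 0.41) and VIT_209s0054g01880 (L40e, 0.34). The most negative were VIT_204s0023g00930 (L38e, -2.22), VIT_208s0007g07210 (S28e, -1.95) and VIT_207s0005g05190 (L27Ae, -1.86). The L27Ae copy had 37.0, 6.79 and 22.1 FPKM in T1 and 38.9, 33.2 and 31.6 FPKM in T2 at E-L 31, so that its value rests largely on T1 replicate B, the library with the most seed storage transcripts.

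The effect of bagging between véraison and mid-ripening differed between E-L 36 and E-L 37 in 17 members by the same kind of test, with VIT_212s0028g01800 (L11e, 0.70), VIT_200s0317g00130 (L35e, 0.69) and VIT_217s0000g03530 (S7e, 0.68) at the top. The S7e copy had 139.6, 130.1 and 121 FPKM in T8 and 103, 89.5 and 96.3 FPKM in T2 at E-L 36, and 86.1, 96.8 and 103 FPKM in T8 and 108, 110.1 and 121 FPKM in T2 at E-L 37.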

How the results depend on the processing

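Counts of called members are given here as higher and lower together. Median-of-ratios scaling gave 14 (7 as reported) for T1 at E-L 36, 1 (14) for T1 at E-L 37, 12 (28) for T8 at E-L 36, 13 (20) for T8 at E-L 37, 134 (89) for E-L 35 against E-L 31 in T1, and 2 (17) for the difference of the T8 effects. Totals scaled to an equal sum gave 48 for T8 at E-L 36 and 28 for that difference. A fit on the groups compared only gave 4 (144) for T1 at E-L 31, 0 for T1 at E-L 36, 2 for T1 at E-L 37, 1 (0) for T1 at E-L 38, 31 for T8 at E-L 37, 0 (3) for T8 against T1 at E-L 36, 37 for E-L 35 against E-L 31 in T1, and 66 for the difference of the T8 effects. For T1 at E-L 35 it gave 122 (168). With the seed list as covariate 73 were called for T1 at E-L 31, 12 for T8 at E-L 36, 9 for T8 at E-L 37 and 24 for E-L 35 against E-L 31 in T1, and with T1 replicate A alone at E-L 31 the counts were 50 for T1 at that stage and 47 for the stage step. The cause of these changes was not tested. The fits on the groups compared only, and the one with T1 replicate A alone, hold fewer libraries.

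Leaving out 1 library gave 1 to 6 calls for T1 at E-L 36, 2 to 16 for T1 at E-L 37, 9 to 20 for T8 at E-L 36, 6 to 15 for T8 at E-L 37, 0 to 3 for T8 against T1 at E-L 36, 29 to 49 (57) for E-L 36 against E-L 35 in T2 and 5 to 22 for the difference of the T8 effects. In that last difference 5 were called without T8 replicate A and 11 without B at E-L 36, 7 without A and 9 without B of T8 at E-L 37, 10 without B and 11 without C of T2 at E-L 36, and 7 without A of T2 at E-L 37. For T8 against T1 at E-L 36, 0 were called without T8 replicate A or B or T1 replicate B, and 1 without replicate C of either. The main counts varied less: 113 to 146 for T1 at E-L 31, 140 to 172 for T1 at E-L 35 and 180 to 189 for the difference between them.

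The replicate letters did not pair the libraries (mean residual correlation 0.00 for the same letter, and 17 of 42 libraries nearest to one of their own letter). With the replicate block 142 members were called for T1 at E-L 31 and 169 for T1 at E-L 35, and no count moved by over 1.5 times. A pseudocount of 0.1 and no filter moved none either. Of 95 values of named members under 1304 alternatives, 179 lost the call and 0 changed sign. Median-of-ratios scaling moved the median of all genes from -0.22 to -0.06 for E-L 35 against E-L 31 in T2, to -0.10 from -0.21 for the same step in T1, and from 0.16 to 0.00 for E-L 37 against E-L 36 in T2. Genes near 1 FPKM are little resolved by a pseudocount of 1.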
